A study of Mus musculus with 4 samples.

Results

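Chromatin accessibility around the genes of the AP-1 transcription factors was examined in periosteal stem/progenitor cells (PSPCs) that lack or carry Plagl1, a zinc finger transcription factor gene. The assay was ATAC-seq, where open DNA is cut and tagged by a transposase. The knockout group had 2 libraries of genotype Ctsk-iCre;Plagl1fl/fl, in which Cre is expressed from the cathepsin K gene, and the control group had 2 libraries of genotype Plagl1fl/fl without Cre. All mice carried the floxed allele and were 8 weeks old. Cells dissociated from the angle of the mandible were cultured and then spent 3 days in a medium that promotes bone formation, containing dexamethasone, β-glycerophosphate and ascorbic acid. The labels name no sort of the cells and do not say whether the libraries of a genotype came from separate mice. Only knockout libraries carried Cre, so its effect and that of the Plagl1 deletion cannot be told apart. The files give 1 fold, 1 F statistic and 1 p-value per peak for the whole comparison, so values, depth and spread per library are not analysed here. Around the genes examined, the errors implied by the deposited values fell with read signal about as counting noise alone does. The deposited p-values there hold little spread between libraries beyond that noise. How large the spread between mice was cannot be seen from these files, and the deletion itself was not checked.

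The family comprised 10 genes: Fos, Fosb, Fosl1, Fosl2, Jun, Junb, Jund, Batf, Batf3 and Atf3. Their regions were chosen by 2 criteria. The first took the peaks that the authors' annotation assigned to a member, and that annotation holds peaks selected on a deposited p under 0.05 and a log2 ratio of at least 0.2 in size. The second took all consensus peaks within 50 kb of a member's start site, solved from peak centres and the deposited distances. Together they gave 109 of 85925 consensus peaks, of which 19 were annotated to a member and 106 lay within 50 kb. For Junb and Jund no peak was annotated, so their start sites were not solved and their peaks are not analysed here. Because the first criterion uses the same comparison, and the genes were picked with its results known, the folds and FDRs below are descriptions copied from the authors' deposited table and not tests of the family.

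AP-1 factors are dimers of basic leucine zipper proteins. FOS proteins pair with JUN proteins, which can also pair with each other, while BATF proteins and ATF3 pair with JUN proteins and compete with FOS. Many of these genes are immediate early genes, switched on within minutes by growth factors, cytokines and stress through MAP kinase pathways. In bone, mice without Fos lack osteoclasts, and FOS-related proteins also act in osteoblasts.

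The Fos promoter is known for a site of the cyclic AMP response element (CRE) type. Promoter sequences from RefSeq (build GRCm38.p6) were matched for 9 of the 10 genes, all but Fosl1. The last 150 bases before the start site are shown for 4 genes whose promoters were open and whose folds were close to 0. Capitals mark the CRE core TGACG on either strand, or, in Jun, the site TGACATCA. The coordinates of these 4 lines belong to GRCm38.p6 and cannot be set against the mm39 coordinates of the peaks.
Fos (chr12:85473740-85473889, plus strand): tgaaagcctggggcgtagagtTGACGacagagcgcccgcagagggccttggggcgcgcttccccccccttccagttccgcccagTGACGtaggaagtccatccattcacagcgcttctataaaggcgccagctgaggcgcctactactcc
Fosb (chr7:19310046-19310195, minus strand): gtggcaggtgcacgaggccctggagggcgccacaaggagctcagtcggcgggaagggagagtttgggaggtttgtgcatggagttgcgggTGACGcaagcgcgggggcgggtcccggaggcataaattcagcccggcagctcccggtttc
Jun (chr4:95052223-95052372, minus strand): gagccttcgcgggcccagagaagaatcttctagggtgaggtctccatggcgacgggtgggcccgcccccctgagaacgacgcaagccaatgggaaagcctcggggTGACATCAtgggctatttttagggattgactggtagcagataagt
Atf3 (chr1:191183334-191183483, minus strand): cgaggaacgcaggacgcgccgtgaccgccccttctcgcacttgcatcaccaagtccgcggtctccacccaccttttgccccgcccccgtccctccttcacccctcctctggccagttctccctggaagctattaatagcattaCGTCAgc

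Fos held this core at 129 and at 66 bases before the start site. Fosb held it 60 bases before the start site. In Atf3 it lay on the opposite strand 7 bases before the start site. The core was found in 5 of the 9 member promoters (Atf3, Batf, Fos, Fosb and Junb), against 20.8% of 32851 RefSeq promoters, which span 250 bases before to 50 after the start. TGACATCA was found in Jun alone, 45 bases before the start, against 3.62% of all promoters. Both were chosen after the promoters had been read. The full CRE TGACGTCA, the AP-1 element TGACTCA, the GC-rich PLAGL1 core GGGGCCCC and the CArG box of serum response factor were in 0 of the 9 promoters and in 1.79%, 5.2%, 1.08% and 1.63% of all promoters, with both strands searched. A full CRE also contains the core. Sites more than 250 bases before a start site were not searched, so a count of 0 does not mean that these genes lack the site.

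The first question was whether the promoters themselves differed between knockout and control libraries. None of the 8 promoter peaks was called at the deposited FDR of 0.05 used throughout, and 2 of them had an unadjusted p under 0.05 per the authors' deposited table. Over all consensus peaks 5.62% were called and 19.8% had an unadjusted p under 0.05, so neither count of 8 is read as a result about the promoters. Per kb of peak, the mean signal of the promoter peaks over all libraries ran from 97.8 CPM for Fosl2 through 76.6 for Jun, 67.7 for Fos, 53.0 for Fosb, 34.4 for Atf3, 20.4 for Fosl1 and 10.0 for Batf3 to 7.14 for Batf. CPM is read counts scaled to a common library total, and no error of these levels can be given. The promoter peaks of Fos, Fosb, Fosl1, Fosl2, Jun and the stress gene Atf3 had more signal per kb than those of Batf and Batf3. Batf and Batf3 are best known from lymphocytes and dendritic cells. Without errors, the order of the levels was not tested.

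The Fos promoter peak (chromosome 12, 85520203 to 85521063, mm39) had a log2 ratio of -0.07 (SE 0.0581) per the authors' deposited table, where each SE is the one implied by the fold and F. Ratios are fold changes read as knockout over control, a direction that the labels and headers do not spell out, and if it were the other way gained and lost would swap. The gain or loss label of the authors' annotation matched the sign in all 15221 annotated peaks, which does not show which genotype the fold is over. The Jun promoter peak (chromosome 4, 94939953 to 94941877) had a log2 ratio of 0.01 (SE 0.0376, 95% interval -0.06 to 0.09) per the authors' deposited table, the narrowest interval of the 8. For Fosl2 the peak ended just before the start site (chromosome 5, 32292339 to 32293769) and had a log2 ratio of -0.08 (SE 0.0386, p 0.0433, FDR 0.233) per the authors' deposited table. Fosl1, which encodes FRA-1, had the lowest promoter fold, -0.22 (SE 0.109, p 0.0452, FDR 0.239) at a peak in exon 1 of 4 (chromosome 19, 5497585 to 5498394), and Batf had the highest, 0.25 (SE 0.202), per the authors' deposited table. The 95% intervals of Fosb, Atf3, Batf3, Batf, Fos and Jun all contained 0. These intervals rest on the deposited F alone, and an interval around 0 does not show that accessibility was equal.

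**Figure D1:**
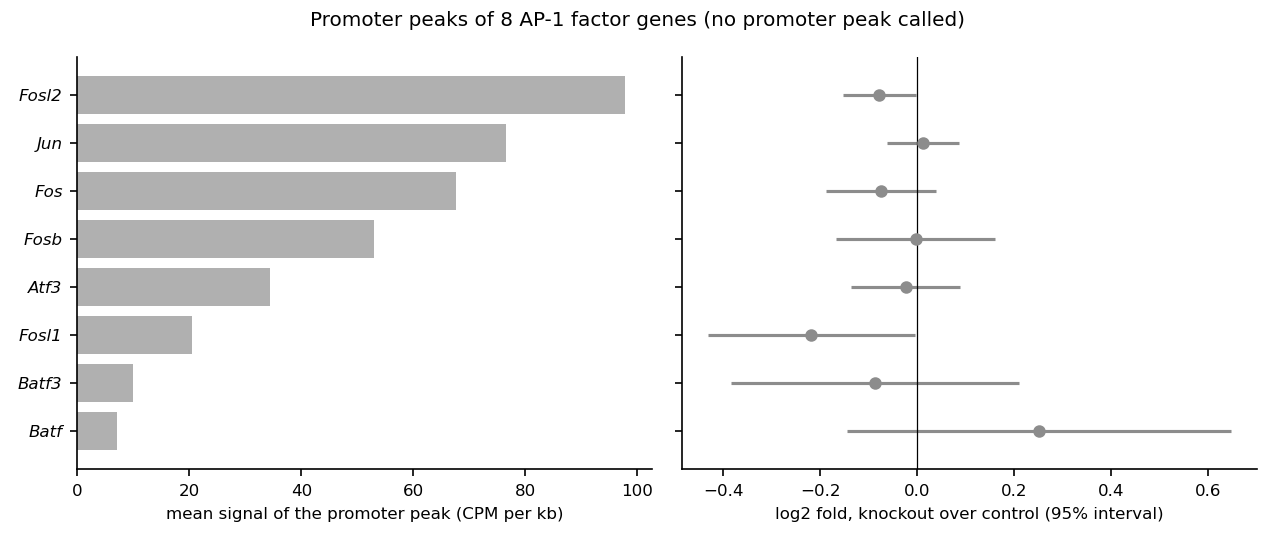
Promoter peaks of the 8 AP-1 factor genes with a solved start site, ordered by mean signal. The left panel gives CPM per kb of peak over all libraries, and the right panel the log2 ratio of knockout over control with the 95% interval implied by the deposited F. Fosl2 has the highest signal (97.8 CPM per kb) and Batf the lowest (7.14), and the folds run from -0.22 to 0.25.

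The second question was which other peaks around these genes differed. Away from the promoters, peaks of Fos, Fosl1, Fosl2, Batf, Batf3 and Atf3 gained accessibility in knockout libraries, all of them at least 12815 bp from the member's start site, and peaks of Fosb and Fosl1 lost it. Of the 106 peaks within 50 kb, 13 were called, 11 gained and 2 lost, per the authors' deposited table. Of all consensus peaks, 3.14% were gained and 2.48% lost. The members' median log2 fold was 0.01, against 0.00 over all peaks (0.00935 and 0.00245). In bulk ATAC-seq, a change in the share of cells with a region open and a change per cell cannot be told apart.

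Of the 25 peaks within 10 kb of a member's start site, 0 were gained and 1 was lost at the deposited FDR, while 7 had an unadjusted p under 0.05. Across consensus peaks within 10 kb of a solved start site of any annotated gene, 5.48% were gained, 4.61% lost and 32% had an unadjusted p under 0.05. Of the 81 member peaks at 10 to 50 kb, 11 were gained and 1 was lost, against 3.86% gained and 2.2% lost among all consensus peaks at that distance from an annotated gene. Among the 19 annotated member peaks, 11 were gained and 0 lost, against 17.6% and 13.1% of all annotated peaks. These backgrounds are given for scale, and nothing is read from them, because the members' regions were selected on the same comparison.

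**Figure D2:**
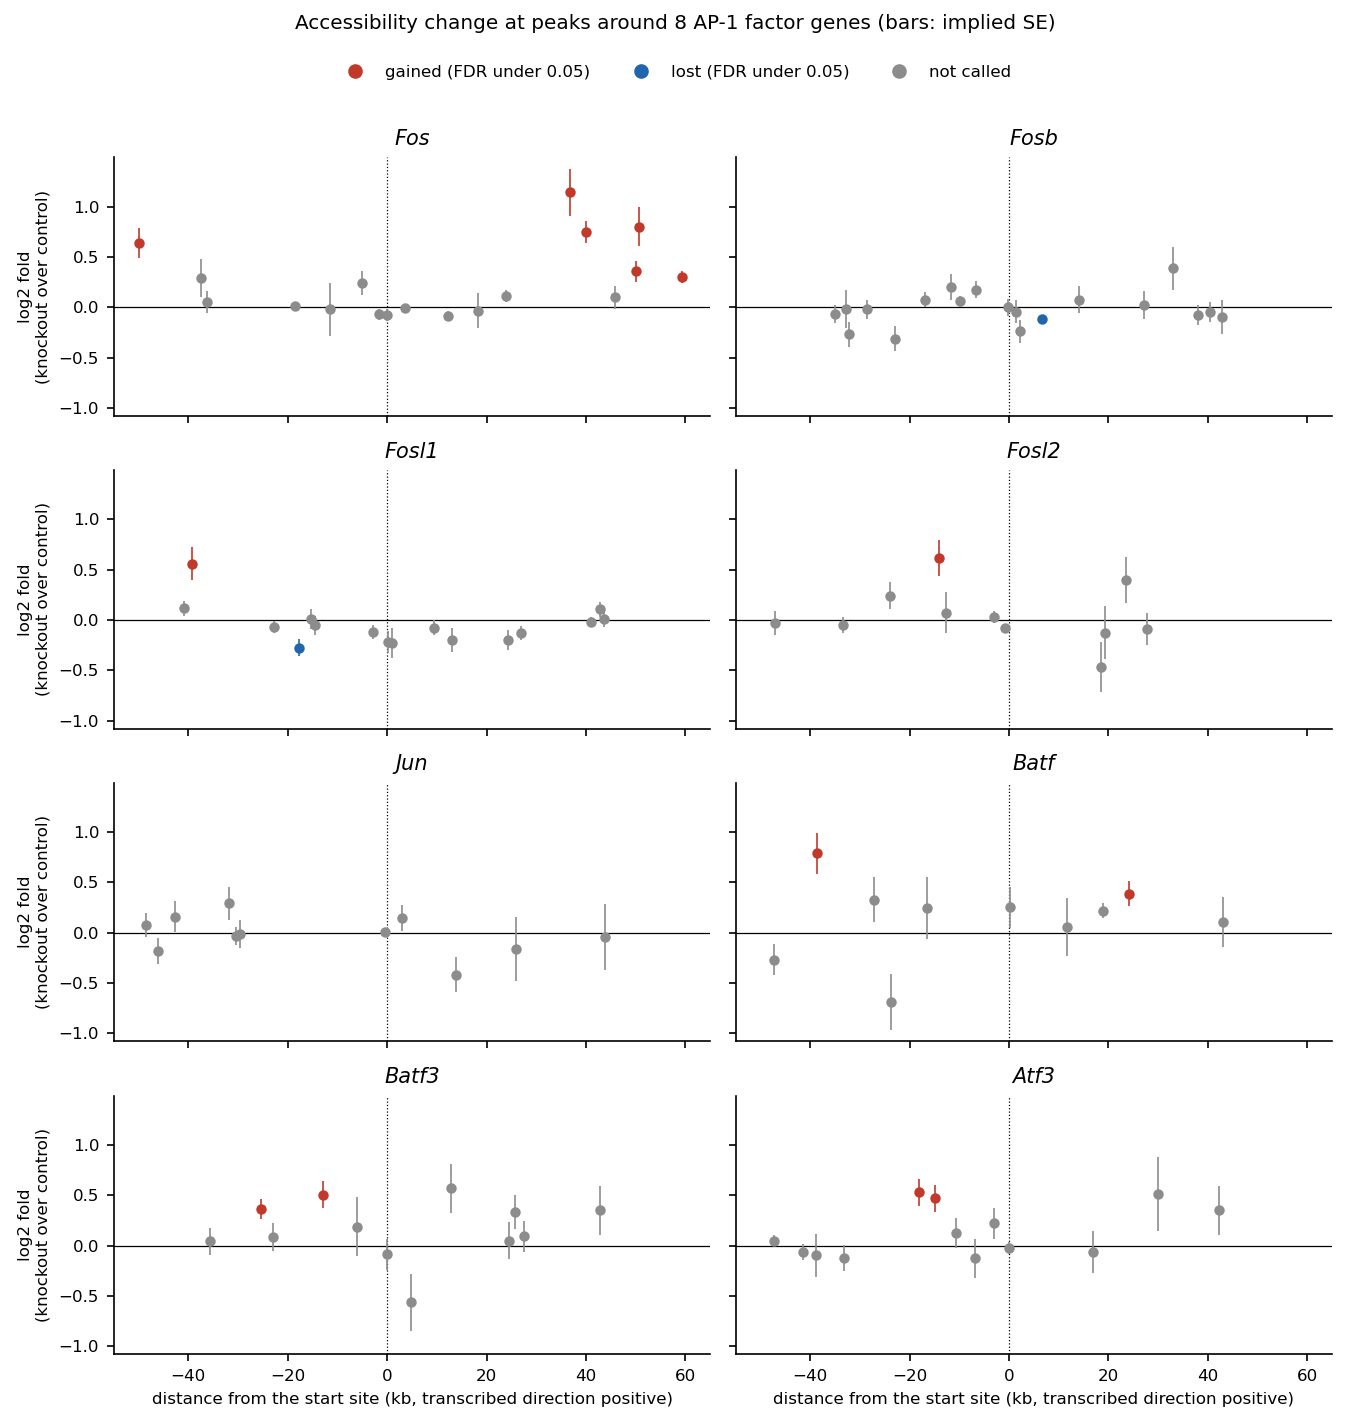
Log2 fold of knockout over control (vertical axis) for each of the peaks around 8 AP-1 factor genes, by distance from the start site in kb (positive in the direction of transcription). Points are peaks, bars the SE implied by the deposited F, red gained, blue lost and grey not called at an FDR of 0.05. Peaks at the start sites run from -0.22 (Fosl1) to 0.25 (Batf) and none is called, and the gained peaks of Fos lie at -49.8 kb and from 36.8 to 59.2 kb.

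Fos, the gene of the founding FOS protein, had the most gained peaks, but 3 of them lie beyond 50 kb and entered through their annotation alone. The nearest of these 3, at 50002 bp, lies just past the limit. Within 50 kb, 3 of 15 Fos peaks were gained, against 2 of 10 for Batf, 2 of 12 for Batf3 and 2 of 13 for Atf3. Of all consensus peaks, 3.14% were gained. Of the 6 annotated Fos peaks, 5 were gained and 0 lost per the authors' deposited table. Of all annotated peaks, themselves selected on p and fold, 17.6% were gained and 13.1% lost. The 5 gained peaks lay together downstream of the gene, within 23.4 kb (chromosome 12, 85557286 to 85580664), all intergenic. The peak at 36.8 kb (85557286 to 85557560) had the largest fold of all 109 peaks, a log2 ratio of 1.14 (2.21-fold, SE 0.233, FDR 0.000295) at a signal of 3.65 CPM, per the authors' deposited table. Its centre lies on an LTR16A2 element, a long terminal repeat of the ERVL class. The peak at 40 kb (85560413 to 85560869) had the lowest FDR, 8.92e-08, with a log2 ratio of 0.74 (SE 0.110) at 15.5 CPM per the authors' deposited table.

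Farther downstream of Fos, the peak at 50.7 kb (85571271 to 85571474) had a log2 ratio of 0.80 (SE 0.194, FDR 0.00345), per the authors' deposited table. Its neighbour at 50.0 kb (85570321 to 85571012), on a MIR element, had 0.36 (SE 0.107, FDR 0.0255) per the authors' deposited table. The strongest of the 5, at 59.2 kb (85579141 to 85580664, 56.5 CPM), had a log2 ratio of 0.30 (SE 0.0585, FDR 0.000111) per the authors' deposited table. The remaining consensus peak inside this stretch, at 45.9 kb, was not called and had a log2 ratio of 0.10 (SE 0.113) per the authors' deposited table. The stretch was drawn from its first to its last gained peak, so the share of gained peaks inside it is not a result.

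On the other side of Fos, a peak at -49.8 kb (85470692 to 85470970), just inside the 50 kb limit, was gained with a log2 ratio of 0.63 (SE 0.150, FDR 0.00261) per the authors' deposited table, and the authors assigned it to the neighbouring gene Tmed10. The peaks next to Fos were not called. The 2 strongest peaks of the window, at -18.5 kb (157 CPM) and 3.7 kb (152 CPM), had log2 ratios of 0.01 (SE 0.0366) and -0.01 (SE 0.0374) per the authors' deposited table. The annotated peak at -5.0 kb had a log2 ratio of 0.24 (SE 0.121, FDR 0.241) and was not called per the authors' deposited table.

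Between Fos and Batf on chromosome 12 lies Jdp2, the gene of a JUN dimerization protein that represses AP-1 sites. The Fos and Batf start sites are 212830 bp apart, and of the 29 consensus peaks between them 7 were gained and 0 lost, with a median log2 ratio of 0.22, per the authors' deposited table. The 5 gained peaks downstream of Fos are among these 7. Over all consensus peaks 3.14% were gained and 2.48% lost, with a median log2 ratio of 0.00. Both ends of this interval are members picked with results known, so nothing about the region is read from its count or median. All 6 peaks annotated to Jdp2 had a fold above 0, and 1 was gained, in intron 2 of 3 (85671418 to 85671896, log2 fold 0.46, SE 0.153, FDR 0.0468), per the authors' deposited table. Of all annotated peaks, 56.7% had a fold above 0 and 17.6% were gained, and 1 of 6 is near the second share. The peak next to the Jdp2 start sites, 125 kb from Fos (52.0 CPM), was not called, with a log2 ratio of -0.16 and an FDR of 0.114 per the authors' deposited table. Along this stretch the gained peaks were interspersed with peaks that were not called.

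**Figure D3:**
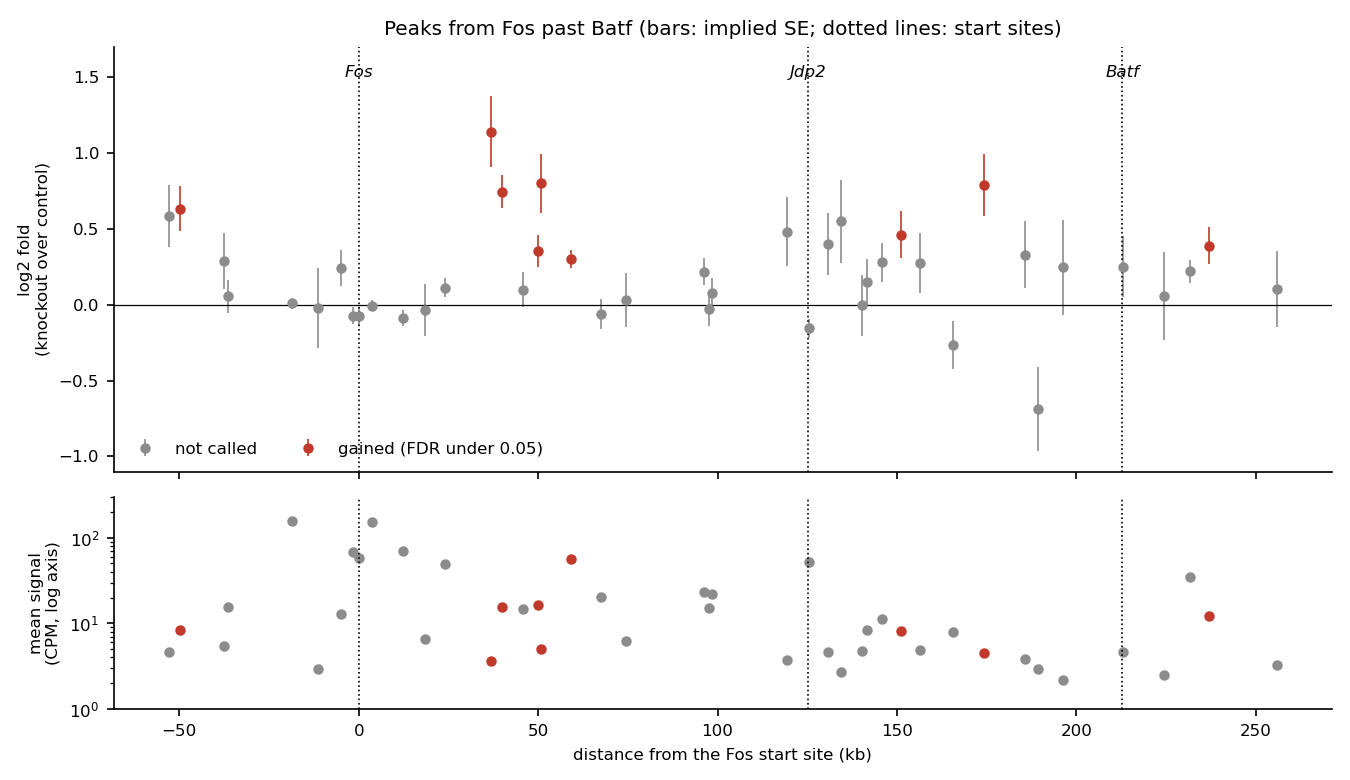
Consensus peaks of chromosome 12 from upstream of Fos to downstream of Batf, by distance from the Fos start site in kb. The upper panel gives the log2 ratio of knockout over control with the implied SE and the lower panel the mean signal in CPM on a log axis, with red for gained and grey for not called peaks. Dotted lines mark the start sites of Fos, Jdp2 and Batf. Of the 29 peaks between Fos and Batf, 7 are gained, against 3.14% of all consensus peaks.

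Batf, whose protein pairs with JUN proteins in lymphocytes, had 2 gained peaks among its 4 annotated ones and 0 lost per the authors' deposited table. Of all annotated peaks, 17.6% were gained and 13.1% lost. The peak at -38.5 kb (chromosome 12, 85694722 to 85695188), on an ORR1F long terminal repeat, had a log2 ratio of 0.79 (SE 0.206, FDR 0.00762) per the authors' deposited table. The peak at 24.1 kb (85757389 to 85757814) had 0.39 (SE 0.124, FDR 0.0376) per the authors' deposited table. The strongest Batf peak, in intron 2 of 2 (85751847 to 85752820, 34.6 CPM), had a log2 ratio of 0.22 (SE 0.0742) and fell just outside the threshold, with an FDR of 0.0534, per the authors' deposited table. A weak peak at -23.6 kb (2.91 CPM) went the other way without being called, with -0.69 (SE 0.276, FDR 0.120) per the authors' deposited table. Of the 10 peaks within 50 kb of Batf, 8 had a fold above 0, against 50.4% of all consensus peaks. Their median log2 ratio was 0.23 at a median signal of 4.20 CPM, and the median of all peaks in that bin of signal was 0.04.

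Batf3, the gene of a factor needed by cross-presenting dendritic cells in mice, and Atf3, a gene induced by many stresses, are neighbours on chromosome 1, and 1 peak lies within 50 kb of both. Atf3 had 2 annotated peaks, both intergenic, upstream and gained, against 17.6% gained of all annotated peaks, per the authors' deposited table. The 2 Atf3 peaks lay at -14.8 kb (190930184 to 190930565, log2 fold 0.47, SE 0.135, FDR 0.0188) and at -18.1 kb (190933391 to 190933789, log2 fold 0.53, SE 0.134, FDR 0.00581) per the authors' deposited table. The Atf3 promoter peak had a log2 ratio of -0.02 (SE 0.0575) per the authors' deposited table.

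For Batf3, an intergenic peak at -12.8 kb (190817294 to 190818298) was gained with a log2 ratio of 0.50 (SE 0.135, FDR 0.00989) per the authors' deposited table. A peak at -25.4 kb (190804797 to 190805648) that the authors assigned to Nsl1, in its intron 4, was gained with 0.36 (SE 0.0999, FDR 0.0124) per the authors' deposited table. The other annotated Batf3 peaks were weak and not called, with log2 ratios of -0.57 (SE 0.286) at 4.7 kb and 0.57 (SE 0.244) at 12.9 kb per the authors' deposited table. Over Batf, Batf3 and Atf3 together, 6 of 34 peaks within 50 kb were gained and 0 lost, against 3.14% and 2.48% of all consensus peaks. Their median log2 ratio was 0.11 at a median signal of 7.28 CPM, against 0.00 over all peaks, per the authors' deposited table. Nothing about the group is read from these values.

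Among the other FOS family genes the picture was mixed. Fosl2, which encodes FRA-2, had 1 annotated peak, intergenic at -14.0 kb (chromosome 5, 32279623 to 32280001), gained with a log2 ratio of 0.62 (SE 0.180, FDR 0.0202) per the authors' deposited table. The other 10 peaks within 50 kb of Fosl2 were not called. Of all consensus peaks 3.14% were gained, and of all annotated peaks, themselves selected on p and fold, 17.6%.

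Fosb, which encodes another partner of JUN proteins, had 1 lost peak among 19 within 50 kb, against 2.48% of all consensus peaks, per the authors' deposited table. The lost Fosb peak (chromosome 7, 19035185 to 19039250) was the strongest of all member peaks at 242 CPM and 4066 bp long, with its centre at 6.8 kb. Its log2 fold was -0.12 (0.922-fold, SE 0.0304, FDR 0.00721) per the authors' deposited table, below the fold that annotation required, so it carries no gene. The annotated Fosb peak, in intron 1 of 3 (19041574 to 19041883), had a log2 ratio of -0.24 (SE 0.112, FDR 0.2004) and was not called per the authors' deposited table.

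Around Fosl1, 11 of 16 peaks had a fold below 0 and the median log2 fold was -0.07 per the authors' deposited table. Of all consensus peaks, 49.6% had a fold below 0. The Fosl1 peaks had a median signal of 28.5 CPM, and the median of all peaks in that bin of signal was also -0.07, so the Fosl1 median is that of other peaks as strong. A peak at -17.8 kb (chromosome 19, 5479688 to 5480262), assigned to AI837181, was lost with a log2 ratio of -0.27 (SE 0.0832, FDR 0.0274) per the authors' deposited table. A peak at -39.2 kb (5458286 to 5458700), in an intron of 4930481A15Rik and on a B1 repeat, was gained with 0.56 (SE 0.160, FDR 0.0178) per the authors' deposited table. Neither is annotated to Fosl1. They were 1 lost and 1 gained of 16 peaks, against 2.48% lost and 3.14% gained of all consensus peaks. A peak at 24.4 kb, with a log2 ratio of -0.20 and a p of 0.0444, lay just under the fold limit of the annotation per the authors' deposited table.

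Jun, the gene of the common partner of the FOS, BATF and ATF3 proteins, had 0 called peaks among 11 within 50 kb at the deposited FDR. Of all consensus peaks 5.62% were called, and 19.8% had an unadjusted p under 0.05. Of the 11 Jun peaks, 1 had an unadjusted p under 0.05. That peak, the only one annotated to Jun (chromosome 4, 94926182 to 94926931, intergenic at 13.9 kb), had a log2 ratio of -0.42 (SE 0.175, p 0.0171, FDR 0.139) per the authors' deposited table. The folds around Jun ran from -0.42 to 0.29 with a median of -0.02 per the authors' deposited table.

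Over all peaks the median ratio was above 0 where signal was weak and below 0 where it was strong. The 14 gained member peaks, the 3 Fos peaks beyond 50 kb included, had a median signal of 10.4 CPM (3.65 to 56.5), and the 2 lost ones had 28.3 and 242 CPM. With a running median of the fold along signal subtracted, neither lost peak passed any longer (Benjamini-Hochberg adjusted p over all peaks 0.118 for Fosb and 0.130 for Fosl1), all 14 gained peaks still passed, and the Batf intron 2 peak passed too (adjusted p 0.00817). With an assumed coefficient of variation of 0.1 between libraries of a genotype, only the Fos peak at 36.8 kb passed (Benjamini-Hochberg adjusted p 0.0481).

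**Figure D4:**
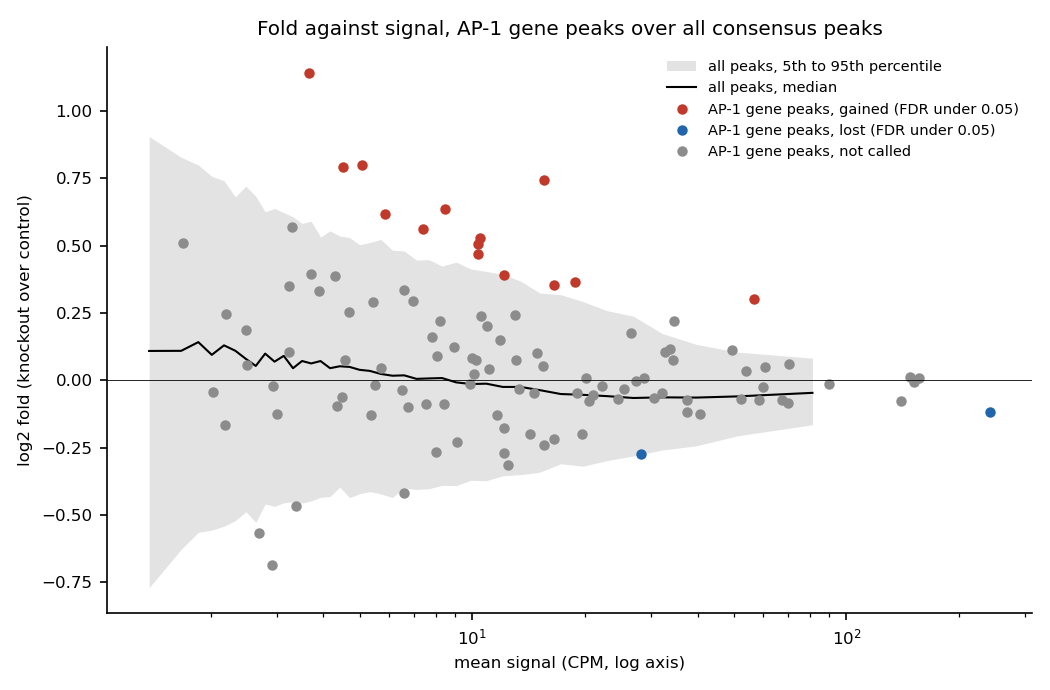
Log2 fold of knockout over control against mean signal in CPM (log axis). Points are the 109 peaks of the AP-1 factor genes, coloured by call (red gained, blue lost, grey not called), the line is the median of all 85925 peaks in 40 bins of signal and the grey band their 5th to 95th percentile. The 14 gained peaks have signals from 3.65 to 56.5 CPM, and the lost Fosb peak stands at 242 CPM.

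Other genes of the pathway were counted from lists picked with earlier results known. Among 8173 annotated genes, 24.5% had a gained peak and 20.6% a lost one, and the middle gene, ranked by its mean log2 ratio over annotated peaks, had 0.20, per the authors' deposited table. Of the 10 members, 8 had an annotated peak, 5 of them a gained one and 0 a lost one, with a median of 0.17 over 8 genes. The background holds only genes with an annotated peak. The counts below are set beside that background, and nothing particular to a list is read from them.

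Of 15 partner and related basic leucine zipper genes, 6 had an annotated peak, 3 of them a gained one (Bach2, Jdp2, Maf) and 3 a lost one (Bach2, Nfe2l2, Nfil3), per the authors' deposited table. The list median was 0.06. The lowest FDRs were those of Nfil3, a repressor gene, with a log2 ratio of -0.59 (SE 0.137, FDR 0.00204) at -13.5 kb, of Nfe2l2, the gene of the oxidative stress regulator NRF2, with -0.34 (FDR 0.00742), and of Maf, a large MAF factor gene, with 0.77 (FDR 0.0248), per the authors' deposited table.

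Of 21 upstream kinases, phosphatases and regulators, 11 had an annotated peak, 7 a gained one and 0 a lost one, with a median of 0.39, per the authors' deposited table. Dusp1, the gene of a phosphatase that switches off MAP kinases, had a gained peak at 10.9 kb with a log2 ratio of 0.48 (FDR 2.15e-06) per the authors' deposited table. Map3k1, a kinase gene upstream of JNK, had 0.96 (FDR 0.00147) in intron 1, and Fbxw7, the gene of a ubiquitin ligase subunit that targets JUN, had 0.84 (FDR 0.0232), per the authors' deposited table. Gained peaks were also annotated to Mapk14, Mapk8, Elk3 and Dusp4.

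Of 23 genes known as AP-1 targets, 15 had an annotated peak, 6 a gained one (Acp5, Ccl2, Cd44, Mmp13, Mmp9, Nfatc1) and 3 a lost one (Hmox1, Vegfa, Vim), with a median of 0.28, per the authors' deposited table. Hmox1, the heme oxygenase gene, had a lost peak at its transcript end with a log2 ratio of -0.51 (FDR 8.36e-07), and Vim, the vimentin gene, one with -0.29 (FDR 5.88e-05), per the authors' deposited table. Ccl2, a monocyte chemokine gene, had a gained peak at -19.1 kb with 0.44 (FDR 0.00156) per the authors' deposited table. The gained Acp5, Mmp9 and Nfatc1 are also genes of osteoclasts.

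AP-1 factors are used by myeloid cells as well as by mesenchymal cells, so markers of both were counted. Of 16 myeloid markers, 10 had a gained peak and 0 a lost one, 3 were annotated without a call and 3 had no annotated peak, with a median log2 ratio of 0.43, per the authors' deposited table. The promoter of C1qb, a complement gene, had 0.55 (FDR 0.000276), that of Spi1, the gene of PU.1, had 0.61 (FDR 0.000708), and a peak of the adaptor gene Tyrobp had 0.46 (FDR 0.000850), per the authors' deposited table. Of 12 mesenchymal markers, 10 had an annotated peak, 1 of them a gained one (Twist2) and 3 a lost one (Twist1, Pdgfra, Lum). A further 6 were annotated without a call and 2 had no annotated peak, with a median of -0.26, per the authors' deposited table. Of all annotated genes, 24.5% had a gained peak and 20.6% a lost one. The strongest annotated peak per gene ran from 5.96 to 37.5 CPM for the myeloid and from 7.06 to 43.9 CPM for the mesenchymal markers. Peaks annotated to markers of both cell types thus had signal in these cultures. Some of these peaks lie far from the gene, and their signal does not show which cells were present. Summed levels per genotype cannot be given without values per library. The part of myeloid cells in the gained peaks of the AP-1 factor genes was not tested.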

How the data were processed

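ATAC-seq libraries of 2 knockout and 2 control samples were compared by the authors. Tools listed in the submitters' processing notes, without roles, are HOMER, DiffBind 3.16.0, deepTools 3.5.5, SAMtools 1.21, GATK 4.5.5.0, Bowtie2 2.5.4 and Trim Galore 0.6.10, with the build mm39. Which peak caller, read shift and normalization were used is not given in the sources used here. Per the file headers, the authors deposited for each consensus peak a log2 fold, a mean log2 CPM, an F score, a p-value and an FDR, and 15221 annotated peaks carry a gene. Annotated peaks were checked to be those with a log2 ratio of at least 0.2 in size and p under 0.05. Columns of unassigned samples numbered 0.

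No test was run over the members as a list, and p-values were recomputed only for the alternatives, over all peaks. A peak was called at a deposited FDR under 0.05, the SE is the size of the log2 ratio divided by the root of F, and lengths are end minus start plus 1. Intervals take 1.96 SE. Depth per library is unknown, which limits precision. Start sites came from peak centre and distance. For the 4 members with 1 annotated peak, strand came from RefSeq GRCm38.p6, except Fosl1, where both solutions lie in the same peak. Over all annotated genes, 2366 of 2378 transcripts with several peaks gave start sites within 2 bp. Promoter peaks cover the start site or are centred nearest to it within 1 kb. The trend was a running median over 2000 peaks by signal, with p from a chi-square on 1 degree of freedom. An assumed coefficient of variation was added to the variance for 2 libraries a genotype. The trend subtraction was run on simulated data that carried the same trend and the implied SE. No spread between libraries was added, so that run does not show how the method fares with such spread. The rule for named genes took all members and, per list, up to 3 genes with the smallest FDR, and other genes named in counts were named after their values were seen. Members, lists and alternatives were chosen with earlier results of these data known. Software was matplotlib 3.10.9, scipy 1.17.1, pandas 2.3.3, numpy 2.4.6 and Python 3.11.15.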

Additional observations from a re-analysis of the deposited data

How the results depend on the processing

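Of the 106 peaks within 50 kb, 13 were called (11 gained, 2 lost). This count was 7 at an FDR under 0.01, 8 with a log2 ratio of at least 0.5 in size, 6 within 20 kb of a start site, 5 with an assumed coefficient of variation of 0.05 and 1 with 0.1. It was 12 after subtracting the trend along signal (12 gained, 0 lost). In other sets of peaks it was 6 of 50 within 20 kb of a start site and 19 of 184 within 100 kb. It was 13 of 116 with both strand solutions and 11 of 80 above the median signal. In alternatives chosen after seeing the data, it was 10 of 102 without repeat peaks and 9 of 100 without peaks assigned to other genes. The shares of all peaks called at these settings are not given here, so nothing about the family is read from the changes. Of the 19 annotated peaks, 11 were called, and this count was 7 at an FDR under 0.01, 7 with a log2 ratio of at least 0.5 in size, 5 and 1 with coefficients of variation of 0.05 and 0.1, and 12 with the trend subtracted. The median log2 fold of the window peaks ran from -0.00408 within 20 kb to 0.0346 with the trend subtracted. None of the 8 promoter folds moved beyond its 95% interval when the trend was subtracted or the nearest centre was used. No paired analysis was possible because the tables give 1 fold per peak and no value per library, so a fit with the replicate number as a block and leaving out replicates were not run.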
